A study of Mus musculus with 8 samples.

Results

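The Wnt ligands of mouse skin, with their receptors, secreted antagonists and a few proteins of the inside of the cell, were compared between irradiated and nonirradiated areas. Members were the genes whose symbol is Wnt, Fzd, Sfrp, Dkk, Axin, Nkd or Rspo followed by a digit, together with Lrp5, Lrp6, Wif1, Ctnnb1, Porcn, Wls and Notum. The rule matched 52 of the 22564 genes in the table. A mean of at least 0.5 FPKM (fragments per kilobase of transcript, divided by library size) over the 8 libraries was reached by 37 of the 52, which were among the 13324 genes tested.

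RNA sequencing covered 4 libraries of skin from areas given a single 35 Gy dose of electrons and collected 24 h later, and 4 libraries from areas that received no dose. All 8 came from male C57Bl/6 mice aged 4 weeks, with no transgene, deletion or other agent named for either group. The labels do not say whether both kinds of area lay on the same mice, whether each library came from its own mouse, or whether tissue was pooled. The p-values below therefore reflect only how far these libraries scatter, and some of that scatter may be technical.

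Wnt proteins are secreted ligands that Porcn modifies with a lipid and Wls carries to the cell surface. When a Wnt binds a Frizzled receptor together with Lrp5 or Lrp6, the complex built on Axin no longer marks beta-catenin (Ctnnb1) for destruction, and beta-catenin acts in the nucleus with TCF and LEF factors. R-spondins amplify the signal through Lgr receptors by removing the ubiquitin ligases Znrf3 and Rnf43, which otherwise clear Frizzled receptors. In skin the pathway is known for inducing hair follicles and for driving hair growth, with ligands from both epithelium and dermal papilla.

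Estimated counts totalled between 5322150 and 6643020 per library. A value above 0 was listed for 9311 to 12921 genes in the irradiated and 12566 to 14610 in the nonirradiated libraries, and pairs of libraries correlated across genes at 0.65 to 0.79 and 0.83 to 0.93. Among counts above 1, the 5th percentile was 13.4 to 35.2 in irradiated and 4.23 to 10.3 in nonirradiated libraries, so the lowest nonzero counts were larger after irradiation. Skin markers were present in every library: summed interfollicular keratinocyte markers stood at 1888 to 3600 FPKM in irradiated and 1458 to 1988 in nonirradiated libraries, and fibroblast markers at 420 to 501 and 323 to 453. Of 12 hair matrix and inner root sheath markers, all 12 had a lower irradiated mean, 10 without overlap, and their sum was 517 to 1078 against 1661 to 2328 FPKM. Over all genes tested, 4.47% were lower without overlap and 56.1% had a log2 change below 0. Dermal papilla markers summed to 99.9 to 121 and 79.3 to 121 FPKM, and Ndp, one of them, was listed at 0 in all 8 libraries. Skeletal muscle markers summed to 3452 to 5810 and 1169 to 4307 FPKM.

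Groups are called separated where the highest value of one, in FPKM unless stated, lies below the lowest of the other. The 5 members with separated, lower values after irradiation were the Frizzled receptors Fzd5 and Fzd1, the ligand Wnt5a, the antagonist Dkk2 and Nkd2, an intracellular inhibitor of the pathway. Sfrp5, a secreted Wnt antagonist, was the 1 member with separated, higher values. Of the 37 members, 26 had a log2 change below 0 (70.3%), against 56.1% of all genes tested, and the median change was −0.54 against −0.11 on the log2(FPKM + 1) scale. The members' median was −0.31 without irradiated replicates 1 and 4, the libraries with most genes listed at 0, and −0.15 with quantile normalization. No member passed limma with Benjamini-Hochberg adjustment over all 13324 genes at 0.05, a threshold that 33 genes met (0.248%). At an unadjusted p under 0.05, limma had 7 members, 6 lower and 1 higher, where the share of all genes tested was 12.9%, with 7.21% lower and 5.68% higher. Values of the 2 groups did not overlap for 16.2% of the members and for 8.47% of all genes, of which 4.47% were lower and 3.99% higher. Without irradiated replicate 3, 12 members were separated, and with quantile normalization or on counts scaled to library totals 5 were. On those scaled counts the groups of Wnt5a overlapped. edgeR's quasi-likelihood test on rounded estimated counts called 1 member, Fzd5 (4 at an unadjusted p under 0.05), with 1.07% of all genes called. DESeq2 called 2, Fzd5 and Fzd1 (6 at an unadjusted p under 0.05), with 4.96% of all genes called. In bulk skin, fewer cells of a type and less RNA per cell cannot be told apart.

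**Figure D1:**
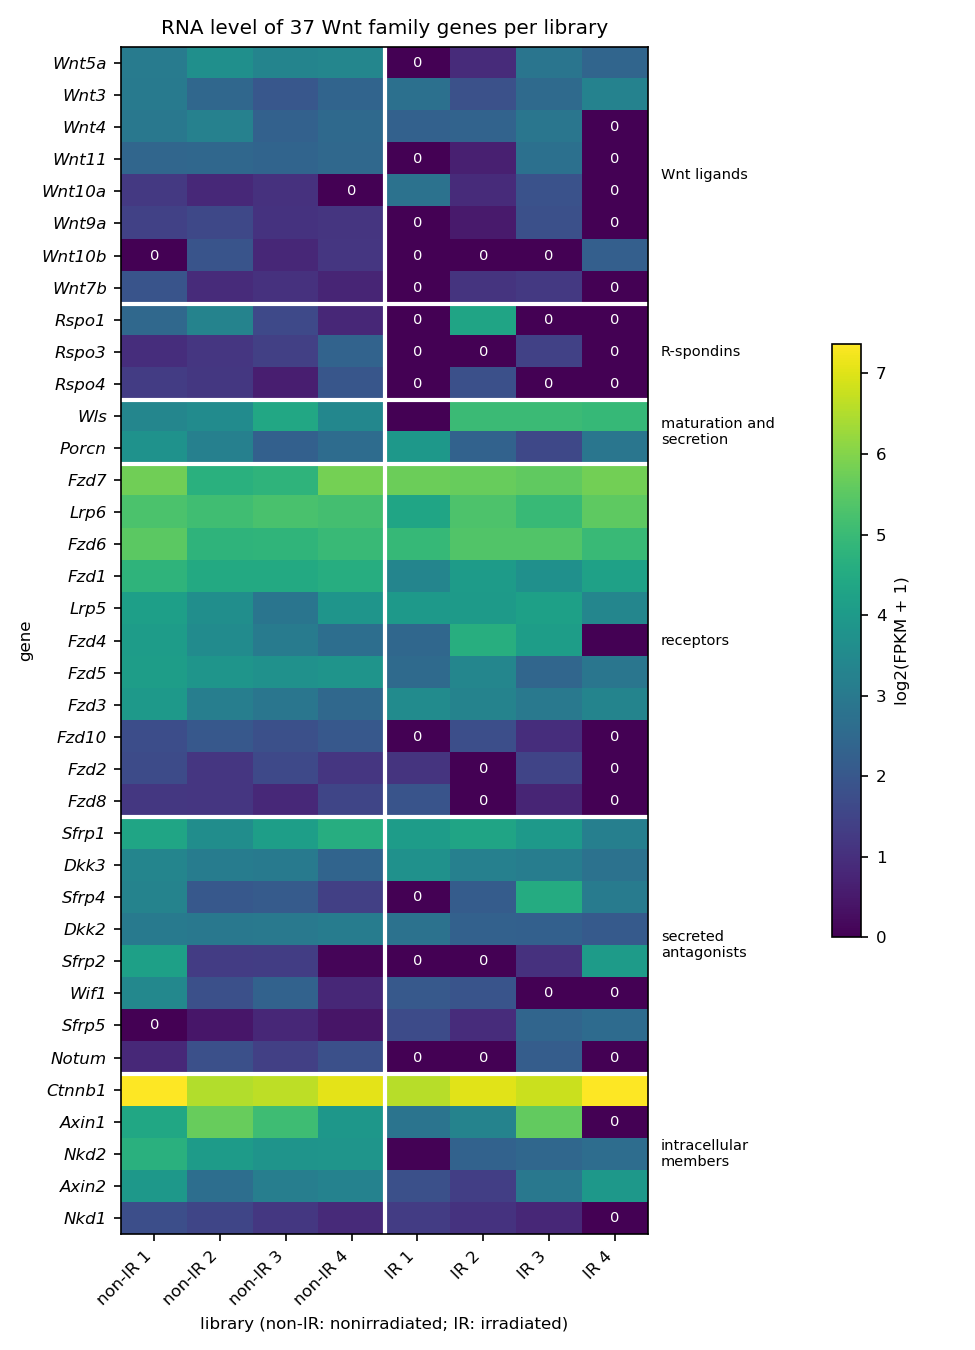
Colour gives log2(FPKM + 1) of the 37 tested Wnt family genes (rows, grouped by role) in the 4 nonirradiated and 4 irradiated libraries (columns). A printed 0 marks a gene listed at 0, which most often occurs in irradiated replicates 1 and 4.

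**Figure D2:**
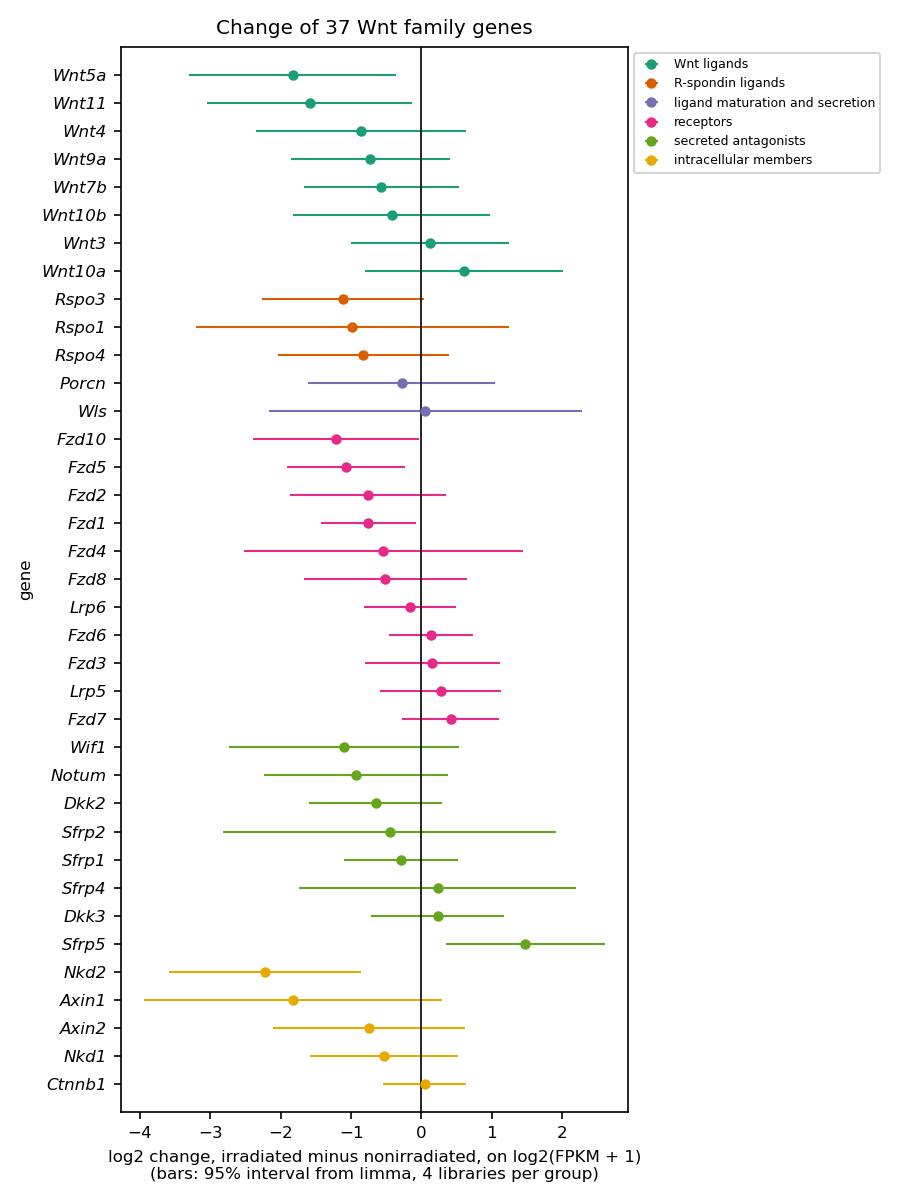
Points give each gene's log2 change, irradiated minus nonirradiated, on the log2(FPKM + 1) scale, with the 95% interval from limma as bars and colours for the role. Of the 37 points, 26 lie below 0 and 11 above.

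Promoters are printed for the 4 members of smallest limma p that have an entry in RefSeq's promoter table, to show how unlike the upstream sequences of these genes are. Each run is the 250 bases before the transcript start in GRCm38.p6, read 5′ to 3′ along the gene's own strand, which is the minus strand for all 4. Capitals mark the GC box GGGCGG or its reverse complement CCGCCC, the element bound by Sp1-type factors.
Nkd2, chr13:73847632-73847881: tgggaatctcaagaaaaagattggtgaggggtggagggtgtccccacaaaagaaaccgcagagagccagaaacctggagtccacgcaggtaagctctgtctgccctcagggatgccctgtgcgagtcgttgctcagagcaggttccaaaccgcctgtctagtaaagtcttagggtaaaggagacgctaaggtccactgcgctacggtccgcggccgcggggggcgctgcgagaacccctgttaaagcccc
Fzd5, chr1:64737751-64738000: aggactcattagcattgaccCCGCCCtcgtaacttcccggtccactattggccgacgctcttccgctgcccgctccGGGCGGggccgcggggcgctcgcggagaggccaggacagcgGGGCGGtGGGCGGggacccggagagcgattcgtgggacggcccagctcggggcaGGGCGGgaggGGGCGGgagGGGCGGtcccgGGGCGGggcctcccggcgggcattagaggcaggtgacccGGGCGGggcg
Fzd1, chr5:4758217-4758466: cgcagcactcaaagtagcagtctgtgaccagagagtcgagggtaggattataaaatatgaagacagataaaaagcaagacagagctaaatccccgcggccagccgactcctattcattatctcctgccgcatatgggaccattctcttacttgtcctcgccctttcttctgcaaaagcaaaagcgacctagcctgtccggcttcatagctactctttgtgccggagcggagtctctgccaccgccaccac
Sfrp5, chr19:42202253-42202502: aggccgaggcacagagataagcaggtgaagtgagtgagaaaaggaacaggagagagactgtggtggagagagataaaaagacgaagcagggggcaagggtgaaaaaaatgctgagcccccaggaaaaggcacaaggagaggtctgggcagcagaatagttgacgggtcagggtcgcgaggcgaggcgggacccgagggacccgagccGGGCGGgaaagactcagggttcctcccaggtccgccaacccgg
The Fzd5 run holds 9 GC boxes at 76.4% G and C, the Sfrp5 run 1 at 59.6%, and the Nkd2 and Fzd1 runs none at 58.4% and 51.2%. The table held 23 promoters of 21 tested members, of which 16 contained a GC box (69.6%), against 32.7% of all 32851 promoters. A TCF/LEF motif, searched on both strands as CTTTG followed by 2 bases that are each A or T, was found in 2 of the 23 (8.70%), one each for Fzd7 and Wnt11, and in 14.8% of all promoters. Median G and C content was 66.8% for the members and 52.4% for all promoters. These matches describe the letters of a short window only.

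Among the 19 Wnt ligands, 8 were tested, and their means ran from 0.987 FPKM for Wnt7b to 6.15 FPKM for Wnt5a. Wnt5a, a ligand best known for signalling without beta-catenin, stood at 7.38, 11.8, 9.11 and 9.52 FPKM in nonirradiated replicates 1 to 4 and at 0, 0.870, 6.21 and 4.26 in irradiated replicates 1 to 4. Every irradiated value lay below every nonirradiated one, with a mean of 2.84 ± 2.91 against 9.45 ± 1.83 FPKM (SD, n = 4 each). The log2 change of Wnt5a was −1.83 (SE 0.66, limma adjusted p = 0.279), and edgeR gave −1.66 (adjusted p = 0.753). Wnt5a lies at chr14:28504750-28527448 on the plus strand (mm10) and shares 358 exonic bases with Gm2670 on the opposite strand. The labels name a stranded kit, but the use of strand in counting is not given in the sources used here, so reads of such pairs may be mixed. The same holds for Axin2, Ctnnb1, Fzd5, Fzd6, Notum, Rspo3, Sfrp2, Wnt7b and Wnt11, which makes 10 tested members that share exonic bases with another gene.

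Wnt11, another ligand of beta-catenin-independent signalling, was even in the nonirradiated libraries at 4.38, 4.49, 4.17 and 4.63 FPKM. In the irradiated libraries it was listed at 0 in replicates 1 and 4, at 0.582 in replicate 2 and at 5.64 in replicate 3. The groups overlapped through that single irradiated library, and the log2 change was −1.59 (SE 0.66, limma adjusted p = 0.343). Wnt3, a canonical ligand of skin epithelium, stood at 5.63, 2.56, 4.86 and 8.60 FPKM after irradiation and at 7.17, 4.56, 3.03 and 4.18 without it. Its groups overlapped broadly, and the log2 change of 0.12 had a 95% interval from −0.996 to 1.24.

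The other tested ligands, Wnt4, Wnt7b, Wnt9a, Wnt10a and Wnt10b, had log2 changes from −0.86 for Wnt4 to 0.61 for Wnt10a, with overlapping groups. Each was listed at 0 in at least 1 irradiated library, and irradiated replicate 4 had a 0 for all of them except Wnt10b. Over the 8 tested ligands, 6 had a change below 0 and the median was −0.65. The remaining 11 ligands had means below 0.5 FPKM. Wnt1, Wnt7a, Wnt8a, Wnt8b and Wnt9b were listed at 0 in all 8 libraries, and Wnt2, Wnt2b, Wnt3a, Wnt5b, Wnt6 and Wnt16 were above 0 in 2 or 3 libraries each, at up to 1.45 FPKM.

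Of the 4 R-spondins, Rspo1, Rspo3 and Rspo4 were tested, and all 3 had log2 changes below 0. Rspo3, an amplifier of the canonical signal, stood at 0.971, 1.26, 1.62 and 4.07 FPKM in nonirradiated libraries and was listed at 0 in all irradiated libraries except replicate 3, at 1.67. Its log2 change was −1.12 (SE 0.52, limma adjusted p = 0.401), with overlapping groups. Rspo1 was above 0 in a single irradiated library, replicate 2, at 18.9 FPKM, and ranged from 0.775 to 8.77 in nonirradiated libraries. That FPKM was the highest of all 8, but its estimated count of 49.4 was below the 67.4 and 60.2 of nonirradiated replicates 1 and 2. The FPKM value of 1 Rspo1 count varied 5.58-fold between libraries. Rspo4 likewise had 1 irradiated value above 0, at 2.50 FPKM in replicate 2, against 0.544 to 2.94. Mutations of human RSPO4 cause absence of nails. Rspo2 was above 0 in 1 nonirradiated library only, at 0.254 FPKM, and was not tested.

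The acyltransferase Porcn and the carrier Wls, through which all lipid-modified Wnts pass, had no separated values. Porcn stood at 14.3, 3.96, 2.01 and 6.39 FPKM in irradiated and 12.5, 8.32, 3.77 and 5.10 in nonirradiated libraries, a log2 change of −0.28 (95% interval −1.61 to 1.05). Wls was at 31.5, 31.5 and 29.7 FPKM in irradiated replicates 2 to 4 but at 8.40e-06 in replicate 1, against 9.37, 10.8, 20.2 and 9.69 without irradiation. With that near-zero library, the log2 change was 0.06 (95% interval −2.16 to 2.28).

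Of the 12 receptors, 11 were tested and Fzd9 was below the minimum. Fzd7 had the highest mean, at 45.4 FPKM, and 7 of the 11 receptors had a change below 0, with a median of −0.51. Fzd5, a Frizzled that carries canonical signals, stood at 16.2, 13.4, 12.3 and 13.0 FPKM in nonirradiated and at 4.82, 9.39, 4.36 and 6.39 in irradiated libraries. No value overlapped, and the nonirradiated mean of 13.8 ± 1.72 FPKM was 2.20 times the irradiated mean of 6.24 ± 2.28 (SD, n = 4 each). The log2 change was −1.07 (SE 0.38, limma adjusted p = 0.273). On counts, Fzd5 fell by 1.26 on the log2 scale in edgeR (adjusted p = 0.0459) and by 1.21 in DESeq2 (adjusted p = 0.00169), and the edgeR call was lost with DESeq2's size factors (adjusted p = 0.0506). Its span is chr1:64730558-64737751 on the minus strand, and it shares 1233 exonic bases with Gm38058 on the opposite strand.

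Fzd1, at chr5:4753839-4758035 on the minus strand with no exonic overlap, stood at 26.7, 21.3, 21.1 and 23.1 FPKM without and at 9.12, 15.5, 11.97 and 17.6 with irradiation. All irradiated values lay below all nonirradiated ones, at 13.6 ± 3.76 against 23.1 ± 2.62 FPKM (SD, n = 4 each). The log2 change was −0.76 (SE 0.31, limma adjusted p = 0.331). edgeR gave −0.88 (adjusted p = 0.106), and in DESeq2 Fzd1 fell by 0.84 (adjusted p = 0.0277). For Fzd5 and Fzd1 the FPKM value of 1 count was nearly the same in all libraries, so FPKM and counts carry the same pattern.

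Fzd10 and Fzd2, both low, were listed at 0 in 2 irradiated libraries each. Fzd10 stood at 2.34, 3.11, 2.45 and 3.09 FPKM without irradiation and at 0, 2.43, 0.951 and 0 with it, a log2 change of −1.21 (SE 0.53, limma adjusted p = 0.374). Fzd2 was at 2.21, 1.23, 2.11 and 1.26 FPKM without and 1.14, 0, 1.85 and 0 with irradiation, a log2 change of −0.76 (SE 0.50, limma adjusted p = 0.564). Groups overlapped for both genes.

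Groups overlapped for the other receptors. Fzd7 averaged 50.6 ± 3.52 FPKM after irradiation and 40.2 ± 16.7 without it (SD, n = 4 each), a log2 change of 0.42 with a 95% interval from −0.27 to 1.11. Nonirradiated replicates 1 and 4, at 53.3 and 55.9 FPKM, matched the irradiated values of 51.1, 49.7, 46.6 and 55.1, while replicates 2 and 3 were at 24.7 and 26.9. Lrp6, a coreceptor needed for canonical signalling, stood at 19.3, 38.6, 30.6 and 45.8 FPKM after irradiation and at 37.5, 33.8, 36.96 and 35.3 without it. Its limma log2 change was −0.16 (95% interval −0.81 to 0.49). On counts, Lrp6 was at −0.49 in edgeR (unadjusted p = 0.0260, adjusted p = 0.334) and −0.44 in DESeq2 (unadjusted p = 0.0268, adjusted p = 0.261). The FPKM value of 1 Lrp6 count varied 1.70-fold between libraries. Fzd3, Fzd6 and Lrp5 had limma changes of 0.16, 0.13 and 0.27, and Fzd8 −0.51. Fzd4 ran from 3.86e-06 FPKM in irradiated replicate 4 to 23.6 in replicate 2, and its change was −0.54 in limma and 0.12 in edgeR.

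Of the 10 secreted antagonists 8 were tested, of which 5 had a change below 0 and 3 above, with a median of −0.37. Sfrp5, a Frizzled-related decoy at chr19:42197971-42202252 on the minus strand, was listed at 0, 0.351, 0.749 and 0.339 FPKM in nonirradiated and at 2.19, 0.898, 4.28 and 4.91 in irradiated libraries. Every irradiated value was higher, but the levels were low: the estimated counts were 0, 5.28, 11.3 and 5.14 against 33.3, 13.7, 64.5 and 74.7. The log2 change was 1.48 (SE 0.51, limma adjusted p = 0.261), and edgeR gave 2.92 (adjusted p = 0.670).

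Dkk2, an inhibitor that acts on Lrp5 and Lrp6, was even in the nonirradiated libraries, at 7.18, 6.66, 6.96 and 7.46 FPKM in nonirradiated and 5.86, 3.89, 3.83 and 3.28 in irradiated libraries. The groups were separated, with a log2 change of −0.65 (SE 0.43, limma adjusted p = 0.562) and −0.87 in edgeR (adjusted p = 0.499). Notum, an enzyme that removes the lipid of Wnt proteins, was listed at 0 in 3 irradiated libraries and at 3.495 FPKM in replicate 3, against 0.802, 2.50, 1.65 and 2.50, with overlapping groups and a change of −0.93 (SE 0.59).

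Sfrp1, the most abundant antagonist, stood at 15.9, 18.6, 14.5 and 8.0 FPKM with and 19.3, 11.2, 16.4 and 23.2 without irradiation, a log2 change of −0.30 (95% interval −1.10 to 0.51). Dkk3, a divergent member of its family, was at 12.2, 8.23, 7.697 and 5.80 FPKM with and 9.25, 7.60, 7.28 and 4.18 without, a change of 0.23 (95% interval −0.71 to 1.18). Neither gene had separated groups. Sfrp2, Sfrp4 and Wif1 had changes of −0.45, 0.23 and −1.10, each with 1 or 2 irradiated libraries listed at 0. Dkk1 and Dkk4 were listed at 0 in all 8 libraries.

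**Figure D3:**
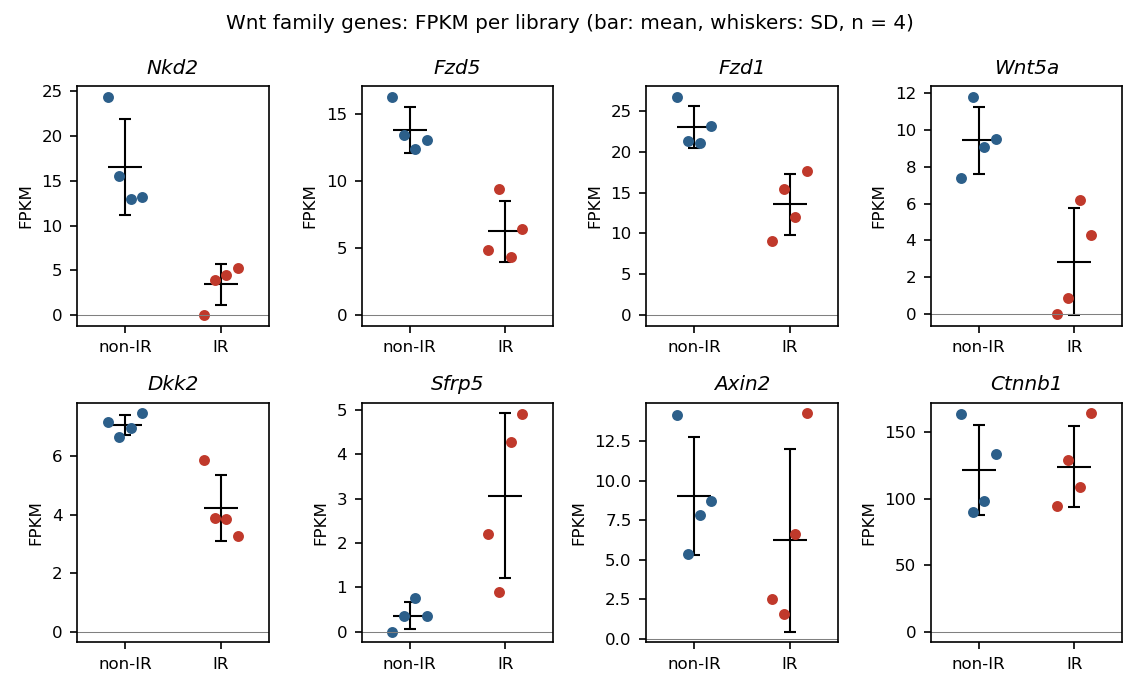
Points give FPKM per library for 8 Wnt family genes, nonirradiated on the left and irradiated on the right, with the mean as a bar and the SD as whiskers (n = 4). In FPKM, groups are separated for Nkd2, Fzd5, Fzd1, Wnt5a, Dkk2 and Sfrp5, and overlap for Axin2 and Ctnnb1. On counts scaled to library totals the groups of Wnt5a overlap.

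Inside the cell, Nkd2, which binds Dishevelled and limits Wnt signalling, had the largest change of all 37 members in limma. It stood at 24.4, 15.5, 13.0 and 13.3 FPKM in nonirradiated and at 0.0284, 3.95, 4.54 and 5.24 in irradiated libraries. The groups lay far apart, at 16.6 ± 5.34 and 3.44 ± 2.33 FPKM (SD, n = 4 each), a ratio of 4.81 between the means. The log2 change was −2.22 (SE 0.62, limma adjusted p = 0.159). edgeR gave −2.41 (adjusted p = 0.267) and DESeq2 −2.37 (adjusted p = 0.0861), so no tool called it. Nkd2 lies at chr13:73818534-73847631 on the minus strand without exonic overlap. Nkd1, its low paralog, averaged 0.851 ± 0.640 and 1.60 ± 0.678 FPKM (SD, n = 4 each), a log2 change of −0.53.

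Axin2, a scaffold of the destruction complex and a common feedback target of the pathway, stood at 2.48, 1.56, 6.66 and 14.3 FPKM in irradiated and 14.2, 5.39, 7.86 and 8.69 in nonirradiated libraries. In FPKM, irradiated replicate 4 was as high as the highest nonirradiated library, and the log2 change was −0.75 (95% interval −2.11 to 0.62). In estimated counts, irradiated replicate 4, at 112, lay below every nonirradiated library, at 335, 191, 195 and 121. The groups still overlapped in counts, through irradiated replicate 3 at 198. The FPKM value of 1 Axin2 count varied 4.55-fold between libraries, so its FPKM is less certain than that of Nkd2 at 1.65-fold, and edgeR gave −0.95 (adjusted p = 0.652). Axin1 was at 6.18, 8.75, 47.9 and 0 FPKM with and 19.9, 49.0, 33.0 and 14.0 without irradiation, a change of −1.82 (SE 0.96, limma adjusted p = 0.461), with a 5.39-fold range per count. Ctnnb1, which encodes beta-catenin, was by far the most abundant member, at 94.9, 129, 109 and 164 FPKM with and 164, 89.9, 98.6 and 133 without irradiation. The log2 change of Ctnnb1 was 0.04 with a 95% interval from −0.54 to 0.63, and protein was not measured.

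Members listed at 0 were more frequent in irradiated libraries, numbering 12, 6, 4 and 15 of 37 in irradiated replicates 1 to 4 and 2, 0, 0 and 1 in nonirradiated replicates 1 to 4. All genes tested moved with them: 23.3, 14.2, 7.72 and 31.0% were listed at 0 in irradiated and 4.36, 2.3, 1.98 and 10.1% in nonirradiated libraries. Over the group, 51.4% of members and 41.5% of all genes had a 0 in some irradiated library, against 8.11% and 12.7% for nonirradiated libraries. The part that this detection pattern plays in the lower values of weakly expressed members, among them Wnt11, Rspo3, Rspo4 and Fzd10, was not tested. Nkd2, Fzd5, Fzd1 and Dkk2 were above 0 in all 8 libraries, but the Nkd2 value of irradiated replicate 1 rested on an estimated count of 0.953.

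**Figure D4:**
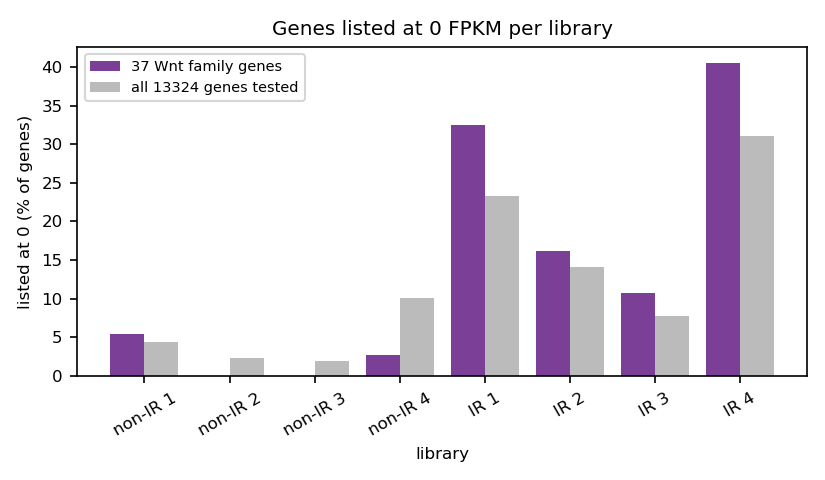
Bars give the percentage of genes listed at 0 FPKM in each library, for the 37 Wnt family genes and for all 13324 genes tested. Irradiated replicates 1 and 4 have the highest bars, 32.4 and 40.5% of the Wnt family genes.

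Beyond the members, 73 of 82 further pathway and target genes were tested, and as in the members none passed limma at an adjusted p of 0.05. At an unadjusted p under 0.05, 8 were lower and 4 higher, and 8 and 2 had separated groups. Over all genes tested, 7.21% were lower and 5.68% higher at that p, and 4.47% and 3.99% were separated. Their median change was −0.13, near the −0.11 of all genes. edgeR called 4, namely Lef1, Lgr5 and Dlx3 lower and Ccnd1 higher, and DESeq2 called those and Znrf3, Crebbp and Prickle2, all 3 lower. Of all genes, edgeR called 1.07% and DESeq2 4.96%.

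The R-spondin receptors and ubiquitin ligases all had changes below 0, with 3 of 5 at an unadjusted p under 0.05 and a median of −1.04. Of all genes tested, 56.1% had a change below 0 and 12.9% an unadjusted limma p under 0.05. Lgr5, an R-spondin receptor and marker of hair follicle stem cells, stood at 55.0, 60.6, 52.8 and 55.6 FPKM in nonirradiated and 26.4, 16.8, 20.9 and 54.1 in irradiated libraries. In FPKM, irradiated replicate 4 alone lay among the nonirradiated values. The FPKM value of 1 Lgr5 count varied 2.29-fold between libraries. Lgr5 is also one of the outer root sheath and bulge markers, whose sum was 1240 to 1929 FPKM with and 1007 to 1252 without irradiation. Of these 10 markers, 5 had a higher irradiated mean and 5, Lgr5 among them, a lower one. The limma change was −1.04 (SE 0.34, adjusted p = 0.233), while on counts Lgr5 fell by 1.45 in edgeR (adjusted p = 0.00472). Znrf3, which removes Frizzled from the membrane, was at 8.38, 5.27, 5.37 and 4.96 FPKM without and 1.08, 1.08, 1.66 and 2.24 with irradiation, with separated groups, a change of −1.48 (SE 0.48, limma adjusted p = 0.224) and a DESeq2 call (adjusted p = 0.00190). Lgr6 was above 0 in 1 irradiated library, at 0.544 FPKM, against 1.43 to 2.56 (limma change −1.45, adjusted p = 0.165). Lgr4 and Rnf43 had changes of −0.06 and −0.91 with overlapping groups.

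Among 18 tested target genes, 5 were lower and 2 higher at an unadjusted p under 0.05, and the 2 higher ones were Ccnd1 and Cd44. For all genes tested the shares were 7.21% lower and 5.68% higher. Lef1, the partner of beta-catenin in hair matrix and dermal papilla, stood at 23.5, 22.0, 17.0 and 22.2 FPKM without and 5.83, 7.59, 2.71 and 7.59 with irradiation. The separation was complete, at −1.74 in limma (SE 0.39, adjusted p = 0.0915), and on counts Lef1 fell by 2.13 in edgeR (adjusted p = 0.0138). Dlx3, a homeobox factor needed for hair in mouse, was at 38.7, 36.4, 23.1 and 17.6 FPKM without and 11.3, 5.64, 6.47 and 6.36 with irradiation, and fell by 2.07 in edgeR (adjusted p = 0.0135), with −1.80 in limma (adjusted p = 0.0829). Msx2, a homeobox factor of the hair matrix, was at 10.0, 22.9, 15.3 and 11.2 FPKM without and 5.61, 1.66, 0 and 0 with irradiation, a limma change of −2.88 (adjusted p = 0.103) that no tool called. Msx2 is also one of the hair matrix markers whose sum was lower in all 4 irradiated libraries. The part of hair matrix content in the values of Lef1, Dlx3, Msx2 and the members was not tested.

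Ccnd1, cyclin D1, which drives entry into the cell cycle, went the other way at 43.6, 43.9, 36.1 and 29.4 FPKM with and 21.5, 14.6, 17.3 and 11.96 without irradiation. All irradiated values were higher, with a limma change of 1.19 (SE 0.29, adjusted p = 0.107), and on counts Ccnd1 rose by 1.18 in edgeR (adjusted p = 0.0223). Cd44, a hyaluronan receptor, averaged 118 against 71.9 FPKM, also with separated groups, a change of 0.70 (SE 0.23, limma adjusted p = 0.241). Myc and Apcdd1 had overlapping groups, with changes of 0.38 (SE 0.36) and 0.36 (SE 0.43). Lef1 shares 1208 exonic bases with Gm43352 and Ccnd1 1100 with LTO1, both on the opposite strand.

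**Figure D5:**
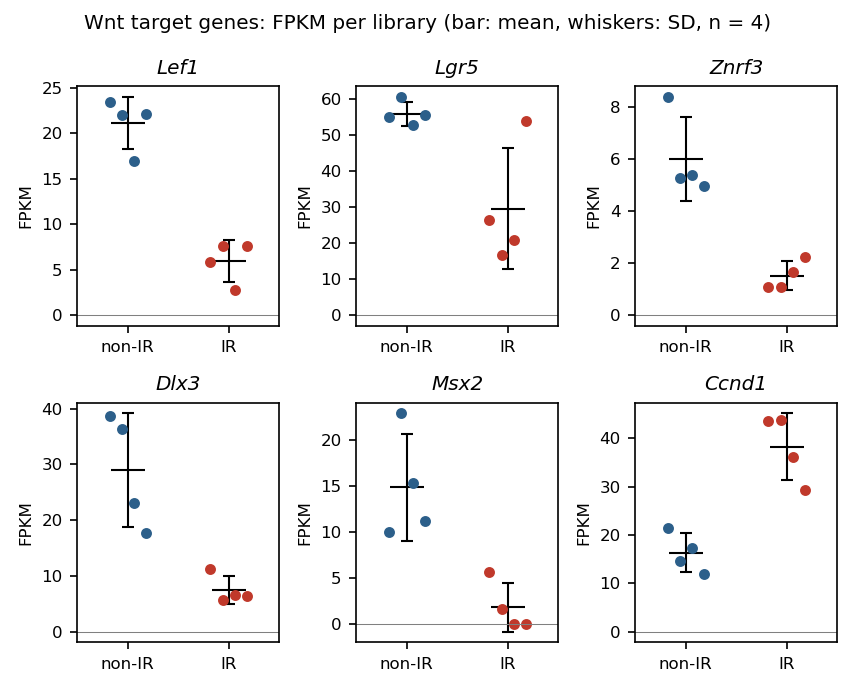
Points give FPKM per library for 6 Wnt target genes, nonirradiated on the left and irradiated on the right, with the mean as a bar and the SD as whiskers (n = 4). Lef1, Znrf3, Dlx3 and Msx2 are separated and lower after irradiation, Ccnd1 is separated and higher, and Lgr5 overlaps through 1 irradiated library.

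In the nucleus, 14 of 17 tested factors had a change below 0, with a median of −0.73 and 3 at an unadjusted p under 0.05, all lower. Across all genes tested, 56.1% had a change below 0 and 7.21% were lower at that p. Tle2, a Groucho-type corepressor, was at 27.3, 7.41, 13.8 and 13.9 FPKM without irradiation and listed at 0 in every irradiated library except replicate 2, at 4.21. The limma change was −3.33 (SE 0.68, adjusted p = 0.0828, and 0.0391 without irradiated replicate 2), while edgeR gave −2.42 (adjusted p = 0.839). The FPKM value of 1 Tle2 count varied 3.52-fold between libraries. Crebbp, a histone acetyltransferase that serves as coactivator, averaged 24.6 ± 5.25 against 37.7 ± 2.93 FPKM (SD, n = 4 each) with separated groups, and had a limma change of −0.62 (adjusted p = 0.342).

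The other lists held few low p-values. Of 21 cytoplasmic genes, only Dact3 had an unadjusted p under 0.05, at 1.48 (SE 0.64), and Dvl2 and Csnk1e had changes of −1.41 and −1.01 with overlapping groups. Of 9 further extracellular inhibitors, only Igfbp4 did, at 0.78 (SE 0.31) in limma but −0.33 in edgeR, and Shisa2 and Tpbg stood at 0.78 and −0.90. The FPKM value of 1 Igfbp4 count varied 3.16-fold between libraries. None of 10 noncanonical receptors and planar polarity genes had an unadjusted p under 0.05 in limma. Prickle2 was separated and lower, at 10.6 ± 1.44 against 17.0 ± 3.33 FPKM (SD, n = 4 each), with a limma change of −0.62 (SE 0.31), and Prickle1 and Ptk7 had changes of −1.39 and 0.64.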

How the data were processed

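Ribosomal RNA was removed from total skin RNA before stranded libraries were made, per the labels' protocols. The authors deposited, per the file headers, an FPKM value and an estimated count (expected count, partly fractional) for each gene and library. The submitters' processing notes name cutadapt (1.9.3), HISAT2 (2.0.4), Cuffdiff, Cufflinks and the mm10 build without saying how each was used. Of 22565 rows, 1 was empty and left out.

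Values of log2(FPKM + 1) were fitted in limma 3.58.1 (R 4.3.3; trended, robust variance moderation) for the 13324 genes averaging 0.5 FPKM or more, and the irradiated group was compared with the nonirradiated one. Benjamini-Hochberg adjustment covered all fitted genes, and calls were made at 0.05. Changes on this scale understate those of low genes. Alternatives were other filters, a pseudocount of 0.1, median ratio scaling, quantile normalization, a replicate block, each library left out, and edgeR 4.0.16 and DESeq2 1.42.0 on counts rounded to whole numbers. The fits were tested on simulated counts with a common dispersion and a constant FPKM value per count, unlike these libraries. That test checked only that large changes set in well-counted genes were recovered.

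Estimated counts totalled 5322150 to 6643020 per library. They are not whole raw counts and appear to be scaled per library, so these totals do not give sequencing depth. edgeR and DESeq2 were run on these values after rounding. Low counts limit the precision for genes near 1 FPKM. Intervals are over libraries. The FPKM value of 1 count varies between libraries for some genes, and is given for only some of these. Members and lists were chosen with earlier results of these data known, and no test was made over a list. A target gene may also sit in another list, and counts over all lists take each gene once. Named members are those called by limma or edgeR, the 12 of smallest limma p, the 2 of highest mean in each role, Ctnnb1, Axin2, Porcn and Wls. Of other lists, up to 3 genes of smallest limma p were named, with Lef1, Lgr5, Myc, Ccnd1 and Apcdd1. Other named genes were chosen after their values were seen. Coordinates are from GENCODE M21, on the mm10 assembly, and promoter sequences are from RefSeq (GRCm38.p6).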

Additional observations from a re-analysis of the deposited data

Results flagged for a closer look

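In 10 of 74 groups of 4 libraries (13.5%), 1 member value stood apart from the other 3 by Dixon's criterion at 95%. Chance flags about 1 in 20 where values are normally distributed, which groups with several values at 0 are not. In the irradiated group these were Rspo1 at 18.9 FPKM in replicate 2, Rspo4 at 2.50 in replicate 2, Rspo3 at 1.67 in replicate 3, Notum at 3.495 in replicate 3, Wnt11 at 5.64 in replicate 3 and Wnt10b at 3.65 in replicate 4. In all of these except Wnt11 the other 3 libraries were listed at 0, so any value above 0 would have been flagged. Sfrp2 stood at 15.6 FPKM in irradiated replicate 4 and at 17.2 in nonirradiated replicate 1, each far above the rest of its group. The FPKM value of 1 count varied 5.09-fold between libraries for Sfrp2 and 5.58-fold for Rspo1. Wls stood at 8.40e-06 FPKM in irradiated replicate 1, where the other 3 irradiated libraries ran from 29.7 to 31.5, and at 20.2 in nonirradiated replicate 3.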

How the results depend on the processing

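The count of all genes called by limma, 33 (16 higher and 17 lower), was 16 with a replicate block and 4 to 72 when each library was left out: 18 without irradiated replicate 1, 72 without nonirradiated replicate 1, 4 without nonirradiated replicate 2 or 3 and 9 without replicate 4. It was 1 without irradiated replicates 1 and 4, an alternative chosen after seeing the data. It was 131 in edgeR, 142 in edgeR with DESeq2's size factors (87 higher and 55 lower), 152 in edgeR without a filter and 707 in DESeq2. The count of Wnt members called, 0 in limma and 0 in every fit that left out 1 library, was 1 in edgeR, 1 in edgeR without a filter and 2 in DESeq2. Members with separated groups numbered 6, and 6 to 12 when 1 library was left out. The 12 was reached without irradiated replicate 3, and 9 were separated without irradiated replicates 1 and 4. Separated members numbered 5 with median ratio scaling, with quantile normalization, and on counts scaled to library totals in the edgeR and DESeq2 fits. Other pathway genes called, 0 in limma, numbered 4 in each edgeR fit, 7 in DESeq2 and 0 to 1 when 1 library was left out (Tle2, without irradiated replicate 2). The median log2 change of the members, -0.54, was -1.31 with a pseudocount of 0.1, -0.15 with quantile normalization, -0.31 without irradiated replicates 1 and 4, and -0.69 to -0.37 when 1 library was left out. The causes were not tested.

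Same-numbered libraries correlated at 0.02, -0.01, 0.01 and 0.09 in their deviations from the group means, and not every library correlated best with its own number, so the numbers were not taken as pairs. The replicate block called 16 genes, 11 higher and 5 lower.

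The sign of some single genes changed. With quantile normalization the log2 change was 0.16 for Wnt10b, 0.10 for Wnt7b, 0.0013 for Wnt9a, 0.11 for Nkd1, 0.16 for Fzd8, -0.13 for Fzd6 and -0.26 for Ctnnb1. With median ratio scaling it was -0.086 for Ctnnb1 and -0.032 for Wls, and with a pseudocount of 0.1 it was -0.70 for Wls and -0.37 for Sfrp4. On counts, Ctnnb1 was at -0.033 in edgeR and -0.051 without a filter. Fzd4 was at 0.12 in edgeR, 0.14 with DESeq2's size factors, 0.10 without a filter and 0.14 in DESeq2. Igfbp4 was at -0.33, -0.29, -0.35 and -0.29 in these fits. Without irradiated replicates 1 and 4, Rspo1 was at 0.10, Wnt3 at -0.28, Wnt7b at 0.019 and Fzd4 at 1.02. When 1 library was left out, changes ran from -0.10 to 0.38 for Wnt3, -0.10 to 0.20 for Ctnnb1, -0.70 to 0.084 for Porcn, -0.37 to 1.30 for Wls, -0.059 to 0.44 for Fzd3, -1.15 to 0.39 for Fzd4, -0.33 to 0.074 for Lrp6, -1.38 to 0.37 for Sfrp2 and -0.46 to 1.04 for Sfrp4. For single genes, 1049 other values under an alternative kept direction and side of the threshold, and 24 passed it only under the alternative.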
